A study of Sus scrofa with 21 samples.

Results

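The proteasome genes of the boar testis were followed in RNA-seq counts of 21 boars. Members were the genes of the count files whose pig symbol is PSM, then a letter from A to G, then a number, and 41 of the 25880 genes in the files met this. Of these, 37 reached at least 1 CPM (reads of a gene per 1000000 counted reads) in at least 11 of the 21 libraries, and all tests were made on them within the 12835 genes that met the same limit. The other 4, PSMB8, PSMB9, PSMB11 and PSME1, stayed below it and are given by their values only. PSMA6, PSMD2 and PSMG1 are in the name table but had no row in the count files, and PSMB5, PSMG2 and PSMG4 could not be matched to a row by name.

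Testis tissue was taken from slaughtered artificial insemination boars, 13 Landrace and 8 Duroc, with 1 library per boar. The boars had been grouped by the share of their sperm with hyperactive motility, the vigorous beating that sperm take up before fertilization. In Landrace, 4 boars with low hyperactivity at day 0 (L1 to L4) were set against 4 with high (L5 to L8), and 4 boars with a low change in hyperactivity over 96 h of semen storage at 18 °C (L2, L9, L10 and L12) against 3 with a high change (L7, L13 and L15). These comparisons share L2 and L7, so they are not independent of each other. In Duroc, 5 boars labelled High (D1 to D5) were set against 3 labelled Low (D6, D7 and D9). Matched by name, the study's own list of boars puts 7 of these 8 in the opposite group, so the membership and direction of the Duroc groups rest on the deposited labels alone. The labels name no treatment of the boars, and the age of each boar is not given in the sources used here.

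The proteasome is the protease that degrades proteins tagged with ubiquitin. Its core particle is a barrel of alpha and beta rings with the active sites on the beta subunits, and its regulatory particle has a base of ATPases that unfold the substrate and a lid that removes ubiquitin. During spermatogenesis much of the cytoplasm and nearly all histones are lost, and the testis is known for its own core subunit, PSMA8, which takes the place of PSMA7 in meiotic cells, and for the activator PSME4, which is linked to the degradation of acetylated histones.

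The libraries held 41358671 to 125576407 counted reads. Among the reads tallied, 21.5% to 30.2% fell on no gene and 5.83% to 8.28% were not uniquely placed. As a check of the tissue, the summed level of 8 spermatid genes, the protamines among them, ran from 5555 to 12628 CPM in Landrace and from 8971 to 10656 CPM in Duroc. Of 7 Sertoli cell genes, AMH alone had no read in any library. These genes summed to 185 to 496 CPM in Landrace and to 204 to 296 CPM in Duroc. In bulk tissue, fewer cells of a type and less RNA per cell cannot be told apart. The labels give no litter, farm or sequencing batch.

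In Landrace boars grouped at day 0, the proteasome genes did not move as a block. Of 37 members, 7 passed an adjusted p of 0.05 (18.9%), where 19.9% of all 12835 genes did, so the share of members called was near the background. By direction, 5 members were called higher in the boars with high hyperactivity (13.5% of members, 4.47% of all genes) and 2 lower (5.41% of members, 15.4% of all genes). The 5 higher members were the core subunit PSMA3, the ATPase PSMC6, the lid subunit PSMD12, and the assembly chaperones PSMD5 and PSMD10. The 2 lower members were the core subunit PSMB3 and the lid subunit PSMD3. The split by direction rests on the scaling between libraries. With library size alone in place of TMM (a scaling that allows for composition), no member was called higher and 6 were called lower. In that fit 16.2% of members and 19.1% of all genes were called, and 99 of the 2453 genes called were higher. Library size alone moved the median log2 fold change of all genes from 0.04 to -0.11, and the members' median from 0.16 to 0.01. The members' median thus stood 0.12 above that of all genes with TMM and 0.13 above it with library size alone. The groups did not overlap in 14 of 37 members (37.8%), of which 11 were higher in the high group, where 31.1% of all genes did not overlap.

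**Figure D1:**
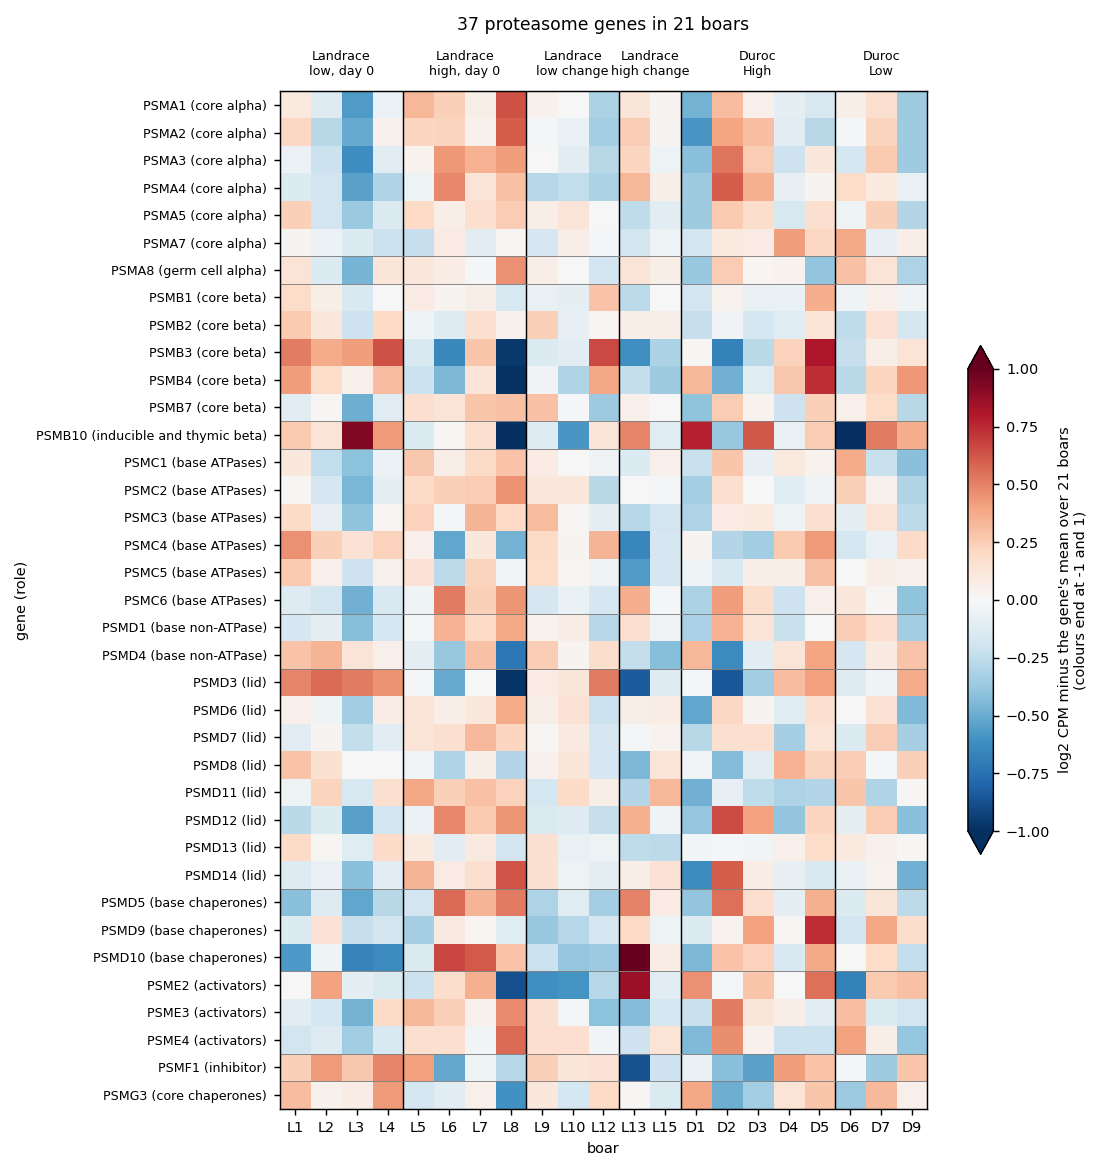
Levels of the 37 tested proteasome genes in 21 boars, as log2 CPM minus the mean of the gene over all boars (red above the mean, blue below it, colours ending at -1 and 1), with boars in columns by group and genes in rows by role. L2 also belongs to the low change group and L7 to the high change group. PSMD3 and PSMB3 are red in L1 to L4 and blue in L6, L8, L13 and D2, where PSMA3, PSMC6 and PSMD12 are red.

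Among the alpha subunits, which form the outer rings and the gate of the core particle, PSMA3 was the 1 of 6 that passed. PSMA3 (ENSSSCG00000005072, chromosome 1, 187342231 to 187371149, RefSeq annotation of Sscrofa11.1) was at 98.7, 88.5, 67.0 and 95.04 CPM in L1 to L4 and at 105, 139, 131 and 137 CPM in L5 to L8. All 4 high boars were above all 4 low boars, and L5 was close to L1. The log2 fold change was 0.48 (SE 0.15, adjusted p = 0.0417). Of the other alpha genes, PSMA4 came nearest at 0.43 on the log2 scale (SE 0.14, adjusted p = 0.0536), also without overlap. PSMA1 was at 0.40 (adjusted p = 0.0832), PSMA2 at 0.31 (adjusted p = 0.164) and PSMA5 at 0.20 (adjusted p = 0.293) on the same scale.

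PSMA7, the alpha subunit of somatic cells, and PSMA8, its germ cell counterpart, share a place in the ring. PSMA8 (ENSSSCG00000003717, chromosome 6, 110799065 to 110836937) was at 85.0, 70.6, 56.2 and 84.3 CPM in L1 to L4 and at 83.8, 81.6, 77.0 and 107 CPM in L5 to L8. The groups overlapped, with a log2 fold change of 0.16 (SE 0.15, 95% interval -0.14 to 0.46, adjusted p = 0.440). PSMA7 (ENSSSCG00000033332, chromosome 17, 61566373 to 61571516) was at 9.52 ± 0.69 CPM in the low group and 9.73 ± 0.92 CPM in the high group (SD, n = 4 each), a log2 fold change of -0.05 (adjusted p = 0.841). The log2 ratio of PSMA8 to PSMA7 counts, which needs no scaling between libraries, was higher by 0.22 in the high group (two-sided exact permutation test, p = 0.200, adjusted p = 0.480 over 12 ratio tests).

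The beta subunits, which form the inner rings, went the other way at PSMB3 and were mixed elsewhere. PSMB3 (ENSSSCG00000037606, chromosome 12, 23347060 to 23357616) was at 11.6, 10.5, 10.8 and 12.6 CPM in L1 to L4 and at 7.26, 5.18, 9.81 and 4.15 CPM in L5 to L8. No high boar reached the lowest low boar, and L7 came nearest. PSMB3 fell by 0.85 on the log2 scale (SE 0.26, adjusted p = 0.0438). PSMB4, a subunit without an active site, was at -0.64 on the same scale (SE 0.22, adjusted p = 0.0583), and L7 at 32.9 CPM lay within the low group. PSMB7, which carries the trypsin-like site, was at 99.7 ± 14.1 CPM in the low and 130 ± 7.14 CPM in the high group (SD, n = 4 each) without overlap, a log2 fold change of 0.31 (SE 0.13, adjusted p = 0.0965). PSMB1 was at -0.10 and PSMB2 at -0.16 on that scale (adjusted p = 0.572 and 0.390).

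The gene of the caspase-like subunit PSMB6 (ENSSSCG00000017913, chromosome 12, 52096009 to 52098164) has no symbol in the name table. It was identified only through a supplementary list of genes called in the study, so it was left out of all counts of members. Its levels were 108, 73.3, 78.6 and 84.5 CPM in L1 to L4 and 71.1, 48.5, 62.0 and 34.03 CPM in L5 to L8. All 4 high boars were below all 4 low boars, although L5 was close to L2, with a log2 fold change of -0.75 (SE 0.22, adjusted p = 0.0376).

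In the base of the regulatory particle, the 6 ATPases that thread the substrate into the core split in direction. PSMC6 (ENSSSCG00000005038, chromosome 1, 182329070 to 182354959) was at 80.6, 77.6, 63.3 and 79.6 CPM in L1 to L4 and at 85.6, 126, 104 and 120 CPM in L5 to L8. Every high boar lay above every low boar, L5 by the least, with a fitted log2 fold change of 0.45 (SE 0.14, adjusted p = 0.0444). PSMC2 and PSMC4 fell just short of the threshold in opposite directions, both without overlap. PSMC2 was at 0.37 on the log2 scale (SE 0.12, adjusted p = 0.0528). PSMC4 was at -0.53 (SE 0.17, adjusted p = 0.0509). PSMC1, PSMC3 and PSMC5 had log2 fold changes from -0.09 to 0.27 and overlapping groups. Of the other base genes, the scaffold PSMD1 was at 0.37 (adjusted p = 0.0542) and the ubiquitin receptor PSMD4 at -0.46 (adjusted p = 0.111).

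The lid held both the lowest and one of the higher called members. PSMD3 (ENSSSCG00000017489, chromosome 12, 22344751 to 22360550), a structural lid subunit, was at 30.4, 31.9, 31.0 and 29.4 CPM in L1 to L4 and at 21.4, 15.2, 21.5 and 10.9 CPM in L5 to L8. The low boars lay close together and the high boars were spread below them. The log2 fold change was -0.90 (SE 0.22, adjusted p = 0.0228), the lowest estimate of the 37 members. PSMD3 lies 986509 bases from PSMB3 on chromosome 12 in that annotation. PSMD12 (ENSSSCG00000017273, chromosome 12, 13704112 to 13730072), another structural lid subunit, was at 66.2, 72.8, 54.8 and 69.9 CPM in L1 to L4 and at 76.6, 111, 95.5 and 108 CPM in L5 to L8. Here the groups were apart in the opposite direction, with L5 nearest to the low boars. PSMD12 rose by 0.49 on the log2 scale (SE 0.14, adjusted p = 0.0371). PSMD14, the enzyme of the lid that cuts ubiquitin chains off the substrate, was at 0.42 on the log2 scale without overlap (SE 0.14, adjusted p = 0.0529). PSMD6, PSMD7, PSMD8, PSMD11 and PSMD13 lay between -0.32 and 0.24 and did not pass.

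Of the 3 members that are chaperones of base assembly, 2 were higher in the high group, although their groups overlapped at 1 boar on each side. PSMD10, known as gankyrin (ENSSSCG00000033180, chromosome X, 88540261 to 88548593), was at 9.19, 13.2, 8.61 and 8.77 CPM in L1 to L4 and at 12.4, 21.7, 20.8 and 16.6 CPM in L5 to L8. L2 was above L5, and the other boars were apart by group. Its log2 fold change of 0.77 (SE 0.22, adjusted p = 0.0351) was the highest of the 37 members. PSMD5 (ENSSSCG00000005507, chromosome 1, 260847403 to 260868767) was at 17.2, 21.1, 16.1 and 19.0 CPM in L1 to L4 and at 20.2, 34.1, 29.2 and 33.1 CPM in L5 to L8. L5 lay within the low group, and the log2 fold change was 0.59 (SE 0.18, adjusted p = 0.0440). The third chaperone, PSMD9, was at -0.06 on the log2 scale (adjusted p = 0.799), and its sign turned without L5 and without a filter on low counts, as did that of PSMA7.

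**Figure D2:**
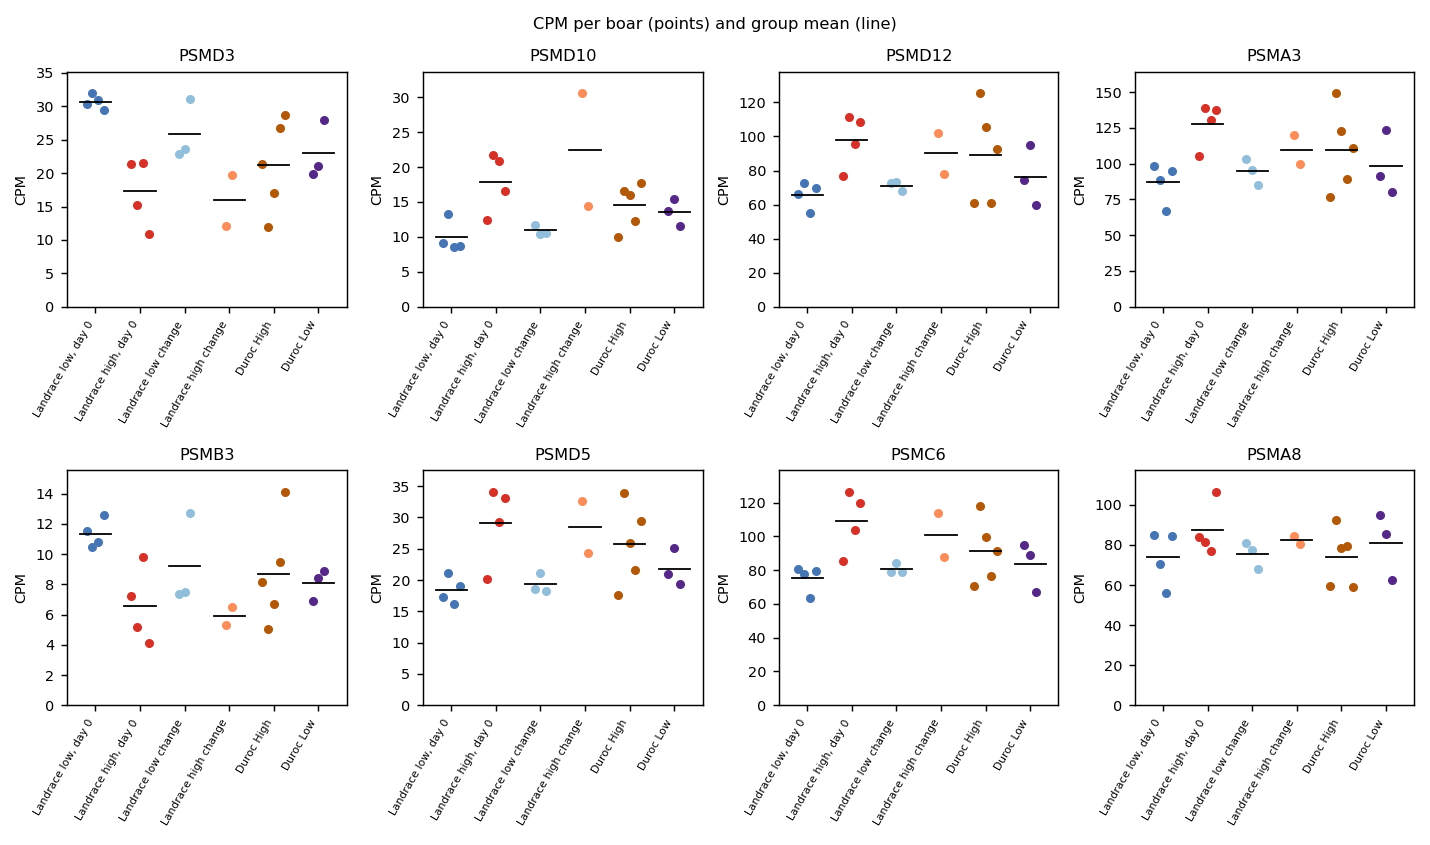
CPM of the 7 members called at day 0 and of PSMA8, with 1 point per boar and a line at the mean of each group; each axis starts at 0. L2 and L7 are drawn in the day 0 groups only. PSMD3 lies between 29.4 and 31.9 CPM in the low day 0 group and between 10.9 and 21.5 CPM in the high, while the Duroc boars of both labels span 12 to 28.7 CPM.

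None of the activators that cap the core passed the test. PSME4, the activator linked to histone loss in spermatids, was at 457 ± 30.6 CPM in the low and 618 ± 114 CPM in the high group (SD, n = 4 each). The groups did not overlap, and the log2 fold change was 0.35 (SE 0.14, adjusted p = 0.0771). The nuclear activator PSME3 was at 0.33 (adjusted p = 0.117) and PSME2 at -0.20 (adjusted p = 0.618), whose sign turned without L8. PSMF1, a protein that inhibits the isolated core particle, was at -0.50 (SE 0.19, adjusted p = 0.0715). PSMG3, a chaperone of core assembly, was at -0.48 (SE 0.23, adjusted p = 0.127).

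The inducible beta subunits PSMB8, PSMB9 and PSMB10, which replace PSMB5, PSMB6 and PSMB7 in cells exposed to interferon, were near the limit of detection in all boars. PSMB10 had 8 to 182 counts per library and reached 1 CPM in 12 libraries, PSMB8 had 9 to 109 counts and reached it in 4, and PSMB9 had 5 to 79 counts and reached it in none. PSME1, the partner of PSME2 in the interferon-inducible activator, had 0 to 26 counts. PSMB11, the subunit of the thymus, had 1 read in D1 and none elsewhere. PSMB10 was at 1.15, 1.05, 1.82 and 1.29 CPM in L1 to L4 and at 0.876, 0.967, 1.07 and 0.451 CPM in L5 to L8. The groups overlapped at L2 and L7, with a log2 fold change of -0.74 (SE 0.34, adjusted p = 0.127). The log2 ratio of PSMB10 to PSMB7 counts was lower by 1.09 in the high group, without overlap between groups. Its p of 0.0286 is the smallest that a two-sided exact permutation test of 4 boars against 4 allows, and the adjusted p over 12 ratio tests was 0.184. Beside it, the summed level of the interferon and antigen presentation genes was 33.1 to 90.6 CPM in the high and 40.3 to 65.0 CPM in the low group, with 0 of 5 tested genes called, and their part in the ratio was not tested. PSMB9 to PSMB6 differed by 0.43 on the log2 scale (two-sided exact permutation test, p = 0.543).

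**Figure D3:**
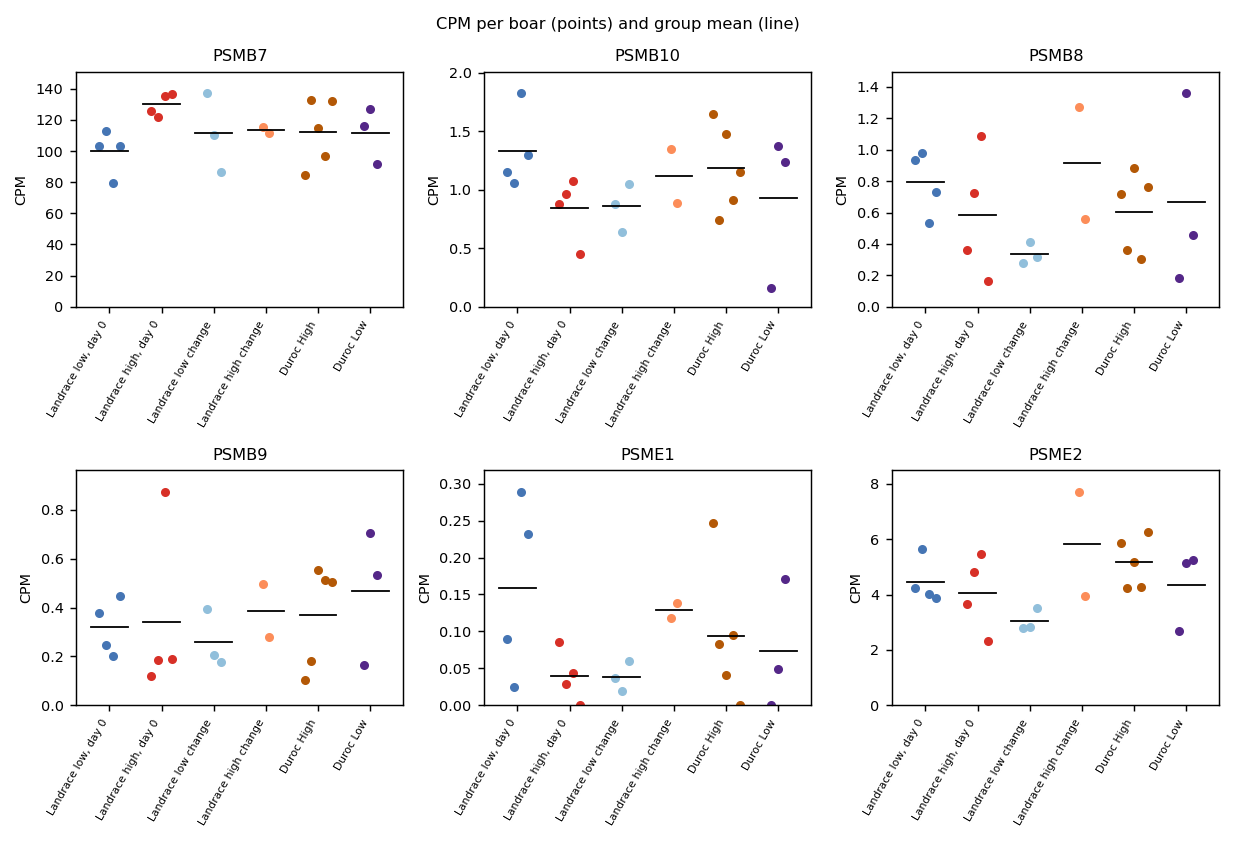
CPM of PSMB7, of its inducible counterpart PSMB10, of PSMB8 and PSMB9, and of the activator genes PSME1 and PSME2, with 1 point per boar and a line at the mean of each group; the scale of each panel is its own and starts at 0. The levels of PSMB8, PSMB9, PSMB10 and PSME1 are at most 1.82 CPM in any boar, and D6 has the lowest PSMB10, 0.163 CPM.

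Other genes of the ubiquitin and proteasome pathway, from a list of 31 of which 26 were tested, also went both ways at day 0. Of the 26, 11 passed (42.3%, where 19.9% of all genes did). The list was chosen with earlier results of these data known, so the larger share does not show an enrichment of the pathway. The 7 higher genes were the proteasome-associated factors ZFAND5, PAAF1, USP14 and TXNL1, the transcription factor NFE2L2, and the shuttle proteins RAD23B and UBQLN1, with log2 fold changes from 0.39 to 0.61. Of the 4 lower genes, UBA1 is a ubiquitin-activating enzyme and UFD1 a cofactor of VCP. UBA1 was at 92.2 ± 11.07 CPM in the low and 51.5 ± 16.4 CPM in the high group (SD, n = 4 each) without overlap, a log2 fold change of -0.91 (SE 0.22, adjusted p = 0.0228). UFD1 was at -0.54 (SE 0.16, adjusted p = 0.0389), also without overlap. RAD23B was at 0.45 (SE 0.14, adjusted p = 0.0465). NFE2L1, the factor best known for raising proteasome genes, was at -0.01 (SE 0.33, adjusted p = 0.983). ADRM1, a ubiquitin receptor of the base, was listed at 0 in every library.

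Cell type markers moved with the day 0 groups in part. The summed level of 7 pachytene spermatocyte genes was 1653 to 2533 CPM in the high and 1128 to 1559 CPM in the low group, without overlap, although 0 of the 7 were called and their median log2 fold change was 0.43. The 8 spermatid genes summed to 9414 to 12628 CPM in the high and 7604 to 11633 CPM in the low group, with 3 called lower. The 4 tested genes of peritubular and endothelial cells summed to 19.5 to 63.7 CPM in the high and 45.5 to 96.0 CPM in the low group, with 1 called lower, and 1 of 6 tested immune cell genes was called lower. No tested marker of spermatogonia, Sertoli cells or Leydig cells was called. The part of these markers in the members' differences was not tested.

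Which members were called depended on single boars. PSMD3 was called in 7 of the 8 fits that each left out 1 boar, with a log2 fold change from -1.04 to -0.73, and was lost without L6. PSMB3 and PSMD10 were called in 2 of these fits, and PSMA3, PSMC6, PSMD5 and PSMD12 in 1. All 7 kept their direction. Without L6, no member and 1 of all genes was called. Without L5, 12 members were called (32.4%), and 28.2% of all genes. The count was 1 without L1, L3, L4 or L8, where 5.27% to 12.1% of all genes were called. It was 2 without L2, with 14.6% of all genes, and 5, all lower, without L7, with 19.8%.

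For the change in hyperactivity during storage, 0 of 37 members were called by edgeR's quasi-likelihood test, by its likelihood ratio test or by DESeq2, where 0.00779% of all genes, 1 gene, were called by the first. At an unadjusted p under 0.05 there were 9 members, and 2537 of all genes. The smallest p was that of PSMD10, at 20.8, 30.6 and 14.4 CPM in L7, L13 and L15 and at 13.2, 11.8, 10.4 and 10.6 CPM in L2, L9, L10 and L12. The groups did not overlap, and L13 had the highest PSMD10 of all 21 boars. The log2 fold change was 0.92 (SE 0.25, adjusted p = 0.241). The same adjusted p belonged to PSMA4 at a log2 fold change of 0.42, PSMD5 at 0.52, PSMF1 at -0.58 and PSMD3 at -0.63, and PSMD12 at 0.35 came next, all without overlap. PSMD3 was at 21.5, 12.1 and 19.8 CPM in L7, L13 and L15 and at 31.9, 22.9, 23.5 and 31.0 CPM in L2, L9, L10 and L12. The groups of 8 members did not overlap (21.6%), where 16.3% of all genes did not. PSMA8 was at 0.11 (adjusted p = 0.619), PSMA7 at -0.09, PSMB7 at 0.10, PSMB10 at 0.27 and PSME4 at -0.09, and none passed. In the pathway list, 0 of 26 genes passed, and the smallest p were those of NFE2L2 at 0.59, PAAF1 at 0.61 and ZFAND5 at 0.65, each with an adjusted p of 0.241. The spermatid genes summed to 5555 to 10228 CPM in the high and 9015 to 12417 CPM in the low change group beside these values, and their part was not tested.

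In Duroc boars grouped by their labels, 0 of 37 members passed an adjusted or an unadjusted p of 0.05. Of all genes, 0.0% were called and 156 (1.22%) had an unadjusted p under 0.05. The groups of no member were apart, where 1.27% of all genes did not overlap. The members' median log2 fold change was 0.07, that of all genes 0.04. PSMD11, the lid subunit with the smallest p, was at 51.7, 67.9, 60.2, 58.0 and 58.9 CPM in D1 to D5 and at 87.2, 58.4 and 72.6 CPM in D6, D7 and D9. D7 lay among the High boars, and the log2 fold change was -0.27 (SE 0.16, 95% interval -0.58 to 0.04, adjusted p = 0.9998). PSMD5 at 0.26, PSMD12 at 0.25, PSMA3 at 0.19, PSMD14 at 0.20 and PSMC6 at 0.16 followed, with groups that overlapped. In the pathway list, 0 of 26 genes passed, and RAD23B at 0.29, RPS27A at 0.35 and AKIRIN2 at 0.27 had the smallest p. PSMD3 was at -0.10 (95% interval -0.66 to 0.47) and PSMB3 at 0.14 (95% interval -0.50 to 0.77). These intervals hold 0 as well as sizeable changes in either direction, so a difference by label was not detectable with these boars.

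The difference between high and low was also compared between the breeds, with L1 to L8 and the 8 Duroc boars in 1 model. The test of the interaction called 0 of 37 members and 0.0% of all genes, and the likelihood ratio test called 0 members. At an unadjusted p under 0.05 there were 4 members, and 1924 of all genes. The difference (Duroc minus Landrace, log2 scale) was -0.45 for PSMC2, -0.46 for PSMD11, -0.68 for PSMD10, 0.96 for PSMB3, -0.42 for PSMD1 and 0.79 for PSMD3, each with an adjusted p of 0.331. A difference between the breeds in these responses was therefore not shown. The Duroc side of each value uses the deposited labels, which the study's own list contradicts for 7 boars, so its sign and size hold for those labels only.

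**Figure D4:**
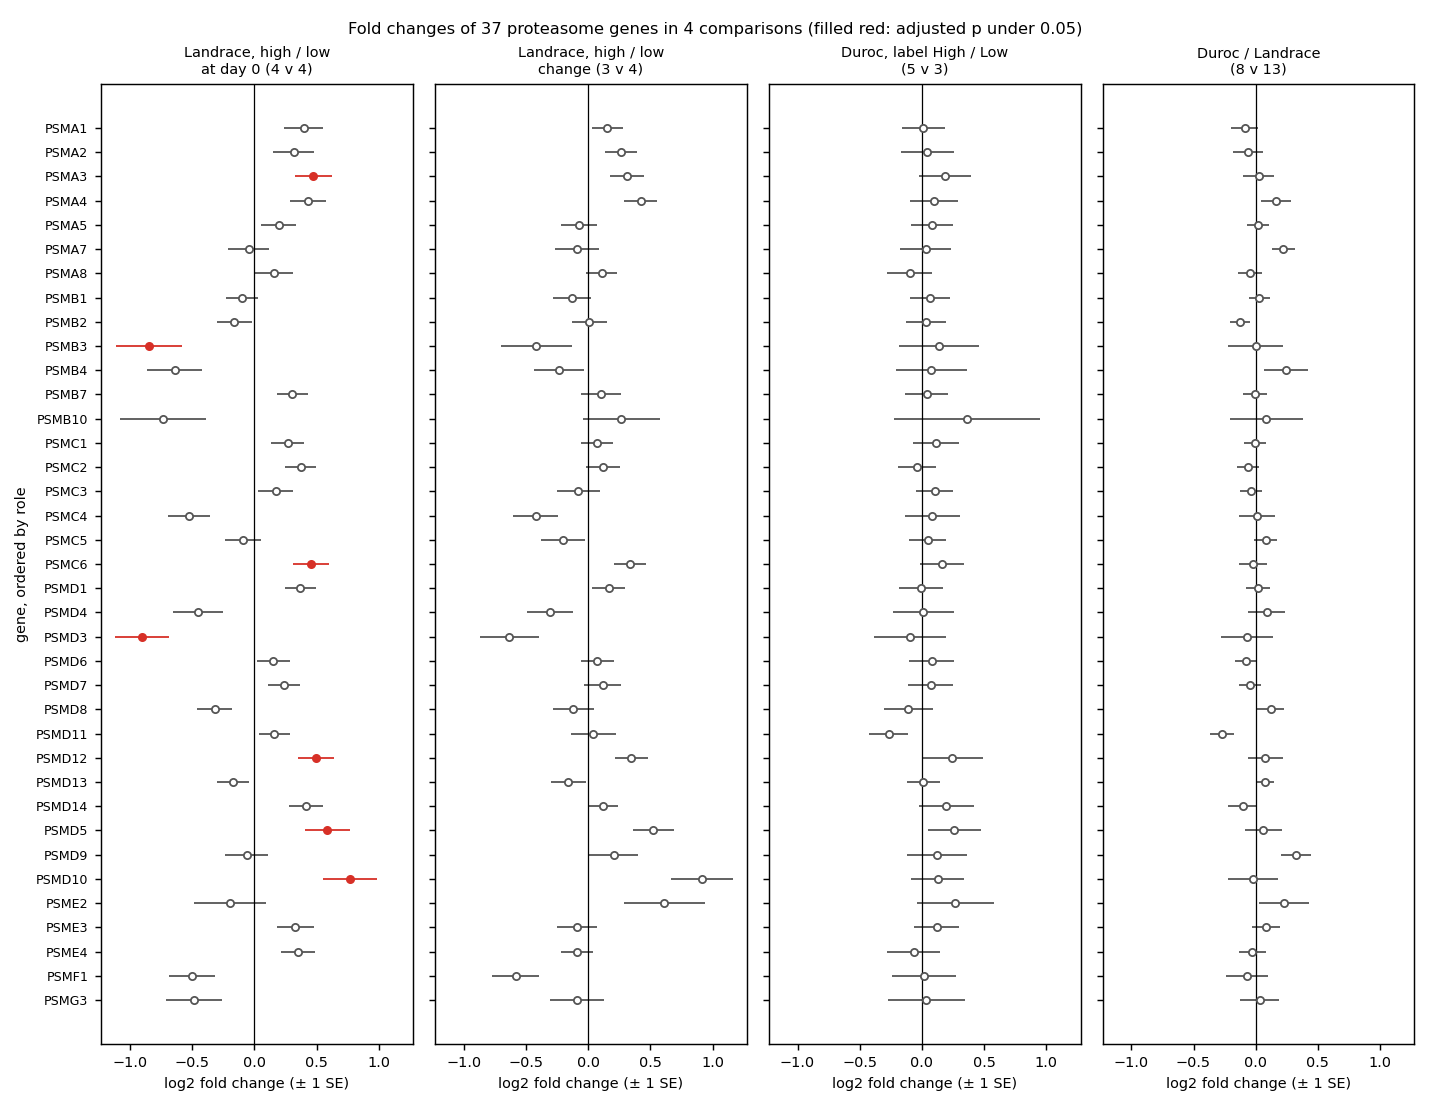
Log2 fold changes of the 37 members in 4 comparisons, with bars of 1 SE; filled red points passed an adjusted p of 0.05. Red points appear in the day 0 panel alone, 5 above 0 and 2 below, and the largest estimate in the change panel is PSMD10 at 0.92; the first and second panels share boars L2 and L7, and the breed panel uses the boars of the other 3.

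No member differed in level between the breeds past the threshold. In 8 Duroc against 13 Landrace boars, 0 of 37 members passed by edgeR's quasi-likelihood test, its likelihood ratio test or DESeq2, where 2.77% of all genes did by the first, and 3 members (8.11%) had an unadjusted p under 0.05, as did 1564 of all genes (12.2%). PSMD11 was at 51.7 to 87.2 CPM in Duroc (median 59.6) and at 58.8 to 94.1 CPM in Landrace (median 82.4). The ranges overlapped widely, with a log2 fold change of -0.27 (SE 0.10, adjusted p = 0.168). PSMD9 was at 11.07 to 21.03 CPM in Duroc (median 13.6) and at 9.73 to 14.5 CPM in Landrace (median 11.5), a log2 fold change of 0.32 (SE 0.12, adjusted p = 0.186). PSMA7 was at 8.90 to 13.6 CPM in Duroc (median 10.8) and at 8.64 to 10.7 CPM in Landrace (median 9.75), a log2 fold change of 0.22 (SE 0.09, adjusted p = 0.283). These 3 are the members with an unadjusted p under 0.05. PSMB4 at 0.25, PSMA4 at 0.17 and PSMB2 at -0.12 came next by p. PSMA8 was at -0.05 (95% interval -0.23 to 0.14), PSMB7 at -0.01 (95% interval -0.19 to 0.18), PSME4 at -0.03 (95% interval -0.24 to 0.19) and PSMB10 at 0.09 (95% interval -0.49 to 0.66). In the pathway list, 0 of 26 genes passed, with PAAF1 at 0.35 (adjusted p = 0.310), UBB at 0.14 and AKIRIN2 at 0.15 leading by p. The log2 ratio of PSMA8 to PSMA7 counts was lower in Duroc by 0.27, at 2.77 ± 0.28 (SD, n = 8) against 3.03 ± 0.23 (SD, n = 13). The two-sided exact permutation test gave a p of 0.0307, and 0.184 after adjustment over the 12 ratio tests. In the ratio tests other than this and PSMB10 to PSMB7 at day 0, the adjusted p was 0.457 or more.

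Over all 21 boars, the coefficient of variation of the 37 members had a median of 19.7%, and that of all genes tested was 24.2%. It was under 15% in 10 members, lowest in the lid subunit PSMD13 at 9.24%, followed by the core subunits PSMB1 at 10.7% and PSMB2 at 11.12%. It was over 25% in 7, highest in PSMB10 at 36.4% and PSMD10 at 36.3%, and it was 32.5% in PSMB3 and 29.4% in PSMD3. The extremes fell on few boars. L3 had the lowest level of 14 members. L8 had the highest level of 8 members and the lowest of 6 others, PSMB3, PSMB4, PSMD3 and PSMD4 among them. L8 was thus at both ends of the same complex.

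The 8 Duroc boars had no part in the day 0 comparison, and the 7 members called there were followed in them. PSMD3, the member with the smallest p, ran from 12 CPM in D2 to 28.7 CPM in D5, and was set against each of the other 6, a choice made after the values were seen. PSMB3 was lowest and highest in the same boars, D2 at 5.07 and D5 at 14.1 CPM. Across the 8 boars, log2 CPM of PSMB3 and PSMD3 had a Pearson's r of 0.90 (exact permutation test, p = 0.000198, adjusted p = 0.00119 over 6 relations) and a Spearman's rho of 0.95 (exact permutation p = 0.00114, adjusted p = 0.00685). Without D2 and D5, the boars farthest from the median of PSMD3, r was 0.90 in the other 6. The 5 members that were higher at day 0 in Landrace all had a negative r with PSMD3 in Duroc, and none passed after adjustment. For PSMC6, r was -0.77 (exact permutation p = 0.0229, adjusted p = 0.0686), rho was -0.74 (exact permutation p = 0.0458, adjusted p = 0.115) and r was -0.83 without D2 and D5. For PSMD12, r was -0.71 (exact permutation p = 0.0437, adjusted p = 0.0874), rho was -0.71 (exact permutation p = 0.0576, adjusted p = 0.115) and r was -0.80 without D2 and D5. PSMA3, PSMD5 and PSMD10 had an r of -0.67, -0.51 and -0.34, with an exact permutation p of 0.0645, 0.215 and 0.404. All values of a boar come from 1 library with its own depth and scaling. No sequencing batch is given in the sources used here, and the part of library or batch was not tested. The relations were chosen after the values were seen, and how common such an r with PSMD3 is among all genes was not tested. The adjusted p values therefore do not show a link particular to these members. The boars labelled High stood at both ends, D2 low and D5 high in PSMD3.

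**Figure D5:**
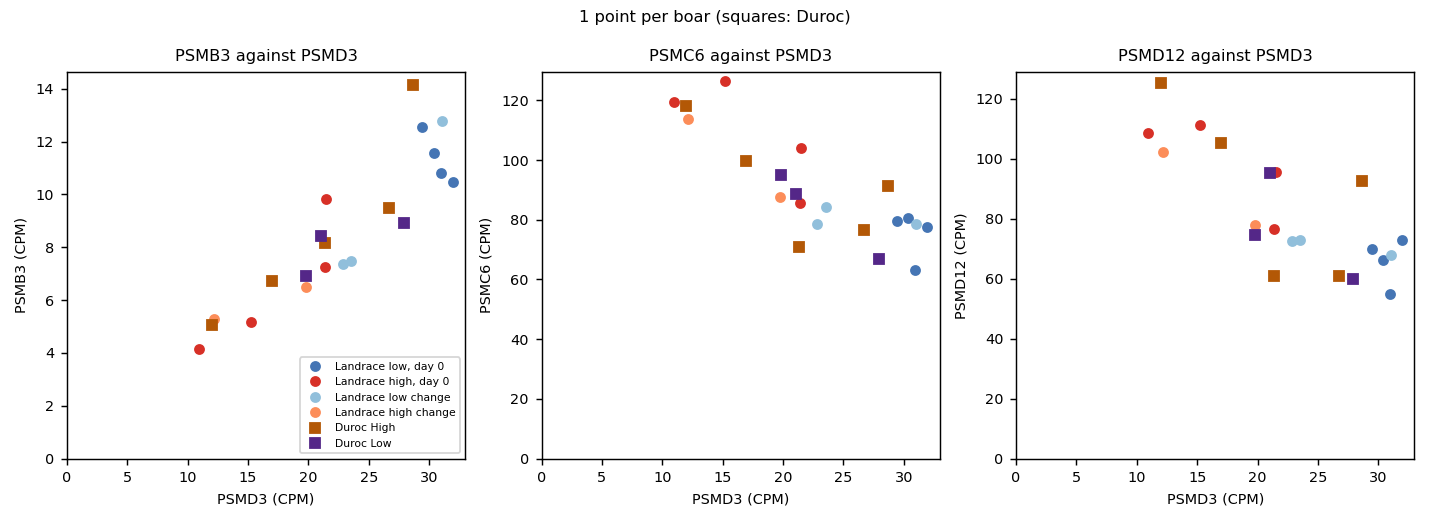
CPM of PSMB3, PSMC6 and PSMD12 against PSMD3 on linear axes from 0, with 1 point per boar (circles Landrace, squares Duroc, colours by group). The Duroc squares rise together for PSMB3 (r = 0.90 on log2 CPM) and run downward for PSMC6 (r = -0.77) and PSMD12 (r = -0.71); no r was computed in Landrace, where the members were chosen for their difference between groups.

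Gene span, the length from start to end in the RefSeq annotation, went with the direction of the estimates to some degree. As a description across genes, which are not independent replicates, Spearman's rho between span and the day 0 log2 fold change was 0.37 over the 37 members and 0.26 over the 10093 genes with coordinates. For the change comparison it was 0.13 and 0.16, for the Duroc labels -0.21 and -0.05, and for the breeds -0.53 and -0.01. Its part in the members' differences was not tested.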

How the data were processed

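Per the labels and the methods of the study, the authors prepared stranded mRNA libraries from total RNA of testis tissue, sequenced 100 bp single reads, trimmed them with Trimmomatic 0.36, aligned them with STAR to Sscrofa 11.1 and counted reads per Ensembl gene with HTSeq in reverse stranded mode. The deposited values are raw counts, 1 file per boar, without normalization. The tallies of unassigned reads were left out of library sizes.

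Here, a name table matched 14857 of 25880 identifiers, and RefSeq symbols on Sscrofa11.1 gave coordinates and spans. The same 12835 genes, those that reached 1 CPM in 11 or more of the 21 libraries, entered each comparison, fitted on its own boars (R 4.3.3, edgeR 4.0.16 quasi-likelihood test, TMM, Benjamini-Hochberg over all genes, threshold 0.05). CPM per boar were TMM-scaled over 21 libraries, so a ratio of mean CPM can differ slightly from the fitted fold change. SE came from the fold change and its F statistic, and 95% intervals are 1.96 SE. Paralog ratios used counts plus 0.5. PSMB8 to PSMB5 was not computed since PSMB5 had no named row. In each comparison the 6 members with the smallest p, PSME4, paralogs, and 3 pathway genes were named with values, except that some genes are not reported here. The members and lists were chosen with earlier results of these data known. Alternatives were a likelihood ratio test, DESeq2 1.42.0, other scalings and filters, 1 fit of all libraries and leaving out boars. The fits were tested on simulated data. Sequences and motifs were not analysed here.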

Additional observations from a re-analysis of the deposited data

Results flagged for a closer look

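In 56 groups of 4 or 5 boars, 3 members had a boar far from the others of its group by Dixon's test, and chance gives about 2.8 such values. PSMD10 was at 13.2 CPM in L2, while the other 3 boars with low hyperactivity at day 0 were at 8.61 to 9.19 CPM. PSMC6 was at 63.3 CPM in L3, and the other 3 boars of that group were at 77.6 to 80.6 CPM. PSMD12 was at 67.9 CPM in L12, and the other 3 boars with a low change were at 72.4 to 73.0 CPM.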

How the results depend on the processing

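The count of members called at day 0, 7 of 37, was 14 with the likelihood ratio test (9 higher, 5 lower), 13 with DESeq2 (9 and 4), 11 with relative log expression scaling (9 and 2), beside 25.7%, 29.2% and 21.1% of all genes in these fits, and 0 with all 21 libraries in 1 fit, where 1 of all genes was called. It was 6 with library size alone (all lower), 7 with the filter set within the comparison and 9 of 40 without a filter. These are 16.2%, 18.9% and 22.5% of members, beside 19.1%, 20.7% and 13.5% of all genes in the same fits. Leaving out each boar in turn gave 0 to 12, and the cause was not tested. The count was 1 without L1, L3, L4 or L8, 2 without L2, 0 without L6, 12 without L5 and 5, all lower, without L7. The number of all genes called moved as well, from 1 without L6 to 3619 without L5. Of the 7 called members, the 5 higher were not called with library size alone, and none was with all libraries in 1 fit. The 7 called members kept their direction under every alternative run. Over all 37 members, 34 did so at day 0, all but PSMA7, PSMD9 and PSME2, none of them called. In the change comparison 29 did, in the Duroc label comparison 12 and in the breed comparison 20, and none of the members whose sign turned there was called. The counts of 0 for the change, Duroc and breed comparisons, for the interaction and for the paralog ratios were 0 under every alternative run. For the ratios at day 0 this says little, because the permutation test of 4 boars against 4 allows no p below 0.0286 before adjustment over 12 tests. Without L2 and L7, the change comparison also called 0. No paired analysis was possible because the replicate numbers name separate boars and pair nothing. PSMB8, PSMB9, PSMB11 and PSME1 stayed below 1 CPM in too many libraries to enter the main fits.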
